A study of Mus musculus with 12 samples.

Results

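Translation initiation and elongation factors are the proteins that start and drive protein synthesis on the ribosome. They were taken as the protein-coding genes whose GENCODE M21 symbols begin with Eif1, Eif2, Eif3, Eif4, Eif5, Eif6, Eef1 or Eef2. The rule found 68 genes among the 55487 genes of the deposited table. The choice used names only and no measured value. All 68 had at least 1 count in some library, and 65 passed the filter on low counts. *Eif4e1b*, *Eef1akmt3* and *Eef1akmt4* did not pass and are described only by their levels.

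In initiation, eIF4F binds the mRNA cap, eIF2 brings the initiator tRNA, eIF3 holds the small ribosomal subunit, and eIF1, eIF1A and eIF5 control the choice of the start codon. In elongation, eEF1A delivers aminoacyl-tRNAs, the eEF1B complex reloads it with GTP, and eEF2 moves the ribosome along the mRNA. Cells slow initiation through kinases that phosphorylate eIF2 in the integrated stress response, and through 4E-BP proteins that block the cap-binding protein when mTOR signalling is low. Photoreceptors of the retina renew their light-sensing outer segments continually, which keeps their demand for protein synthesis high.

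Polyadenylated RNA of whole mouse retina was sequenced without strand information in 12 libraries, 3 in each of 4 groups. The groups were 5xFAD at 6 months, WT at 6 months, 5xFAD at 1 month and WT at 1 month. The 5xFAD animals, with the strain label Tg6799, are an Alzheimer disease model that carries mutant human transgenes driven by the Thy1 promoter, which is active mainly in neurons. The WT animals were C57BL/6J, so genotype and any difference in strain background cannot be told apart. The study asked how retinal transcripts and retained introns differ between the genotypes at each age. The labels do not say that libraries came from separate animals, and the spread behind each p-value may therefore be technical. Values per gene are CPM, expected counts relative to the TMM-scaled library size. A difference was called at an edgeR adjusted p below 0.05 over all 16233 genes tested. The ± after a log2 fold change is an approximate SE, and after a mean it is the SD of 3 libraries. In whole tissue, fewer cells of a type and less RNA per cell cannot be told apart.

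Promoters are shown for 4 of the 5 genes whose genotype difference passed the test in opposite directions at the 2 ages (*Eif1*, *Eef1a1*, *Eif3f* and *Eif4g1*) and for *Eef2*, an abundant elongation factor that passed in neither. Each line runs 5′ to 3′ over 90 bases, from 60 bases before the RefSeq start to 30 after it, on GRCm38.p6. The windows are chr11:100319889-100319978 on the plus strand, chr9:78481695-78481784 on the minus strand, and chr7:108934355-108934444, chr16:20672667-20672756 and chr10:81176571-81176660 on the plus strand. Capitals mark TATAAA or TATATAA, or a C followed by at least 7 pyrimidines, the kind of run that can lie at the start of terminal oligopyrimidine (TOP) mRNAs of the translation machinery.
Eif1: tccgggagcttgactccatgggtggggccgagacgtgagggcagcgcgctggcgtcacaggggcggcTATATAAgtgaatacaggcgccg
Eef1a1: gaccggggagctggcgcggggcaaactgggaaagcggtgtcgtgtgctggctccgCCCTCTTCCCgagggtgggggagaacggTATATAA
Eif3f: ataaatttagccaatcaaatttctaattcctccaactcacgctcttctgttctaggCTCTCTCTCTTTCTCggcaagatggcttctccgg
Eif4g1: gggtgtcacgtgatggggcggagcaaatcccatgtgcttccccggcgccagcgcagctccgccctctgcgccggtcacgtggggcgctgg
Eef2: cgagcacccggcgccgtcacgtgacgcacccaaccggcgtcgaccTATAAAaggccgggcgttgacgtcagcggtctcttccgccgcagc
*Eif1*, *Eef1a1* and *Eef2* carried a TATA word in this window, *Eef1a1* and *Eif3f* a pyrimidine run, and *Eif4g1* neither. The TATA words of *Eif1* and *Eef1a1* lay after the RefSeq start, and that of *Eef2* before it. In *Eef1a1* the pyrimidine run came before the TATA word. RefSeq promoters, 250 bases before to 50 after the start, matched 52 of the 68 genes by symbol. TATAAA or TATATAA, on either strand, was in 7 of the 52 (13.5%) and in 15.7% of all 27025 promoters. The pyrimidine run, on the sense strand from 20 bases before to 30 after the start, was in 12 of the 52 (23.1%) and in 14.8% of all promoters. These matches describe letters only.

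Library totals lay between 10.9 and 19.6 M counts. Photoreceptor markers were abundant in every library, with a summed level of the 8 markers of 57128 to 62236 CPM in 5xFAD and 46957 to 51794 CPM in WT at 6 months, and 57618 to 61937 CPM in 5xFAD and 52674 to 57339.9 CPM in WT at 1 month. The Y-linked *Ddx3y* and *Kdm5d* were present in all 12 libraries, at 43.8 to 79.1 CPM, and *Xist* did not exceed 0.955 CPM. The mean transcript length per count was 3632 to 3730 nt in 5xFAD and 3699.7 to 4019 nt in WT at 6 months, and 4195 to 4227 nt in 5xFAD and 3579 to 3790 nt in WT at 1 month. Pseudogene counts held 2.64 to 2.75% in 5xFAD and 1.15 to 1.38% in WT at 6 months, and 1.57 to 1.63% in 5xFAD and 2.24 to 2.97% in WT at 1 month. Replicates 1 and 2 of 5xFAD at 6 months and replicate 2 of WT at 1 month held the most ribosomal RNA, up to 1.11% of a library.

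Translation factor mRNA was dominated by a few genes. Per length, in TPM, which divides counts by transcript length, *Eef1a1* had the highest median over the 12 libraries, 1989 TPM with a range of 1411 to 2224. *Eef2* followed at 796 TPM, and its range of 660.1 to 919 lay below that of *Eef1a1*. *Eif1* at 606, *Eif4a2* at 527 and *Eif4g2* at 513 TPM came next, with ranges that overlapped each other. The eIF2 kinases were rare, from 23.2 TPM for *Eif2ak3* to 2.85 TPM for *Eif2ak2*. All 68 genes together summed to 9616 ± 236 TPM in 5xFAD and 8472 ± 136 TPM in WT at 6 months, and 9645 ± 281 TPM in 5xFAD and 9699.8 ± 182 TPM in WT at 1 month. WT retinas at 6 months thus had the lowest summed level, and at 1 month the genotypes overlapped. The gap at 6 months lay mainly in the elongation factors, 3979 ± 132 TPM in 5xFAD against 3179.7 ± 186 TPM in WT, and the start codon factors, 1374 ± 105 against 1051 ± 29.6 TPM. Single genes made up most of it: *Eef1a1* had 2020 ± 54.1 against 1502 ± 122 TPM, and *Eif1* 757 ± 56.4 against 412 ± 37.2 TPM. The means of *Eef1a2*, *Eif1a*, *Eif1ax*, *Eif1b*, *Eif2a*, *Eif2d* and *Eif5b* were lower in 5xFAD than in WT.

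**Figure D1:**
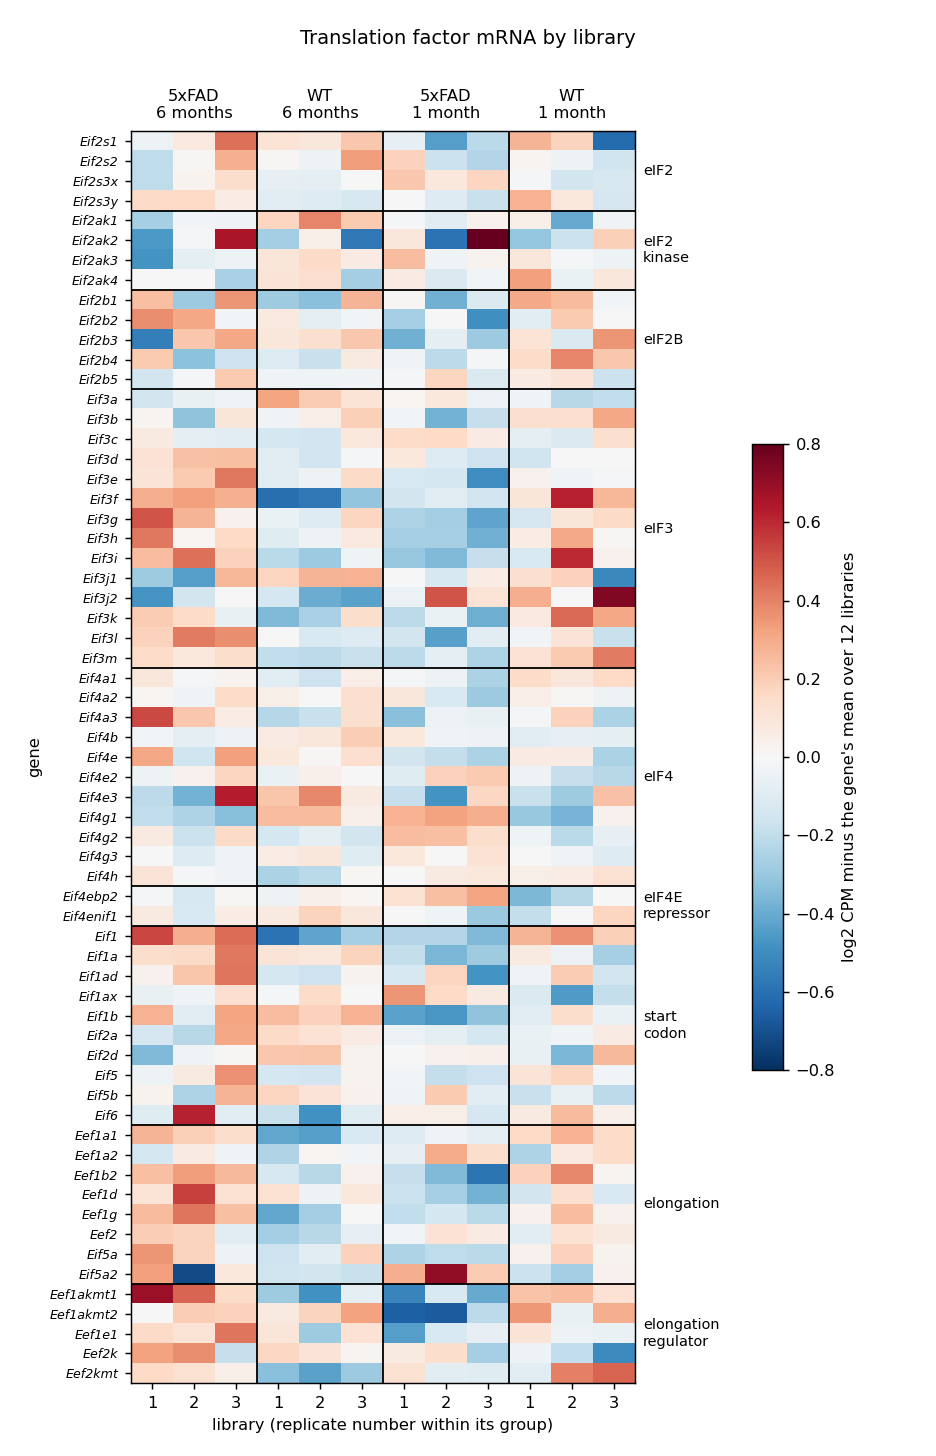
Heat map of 63 translation factor genes (rows, by role) in 12 libraries (columns, by group). Colour is log2 CPM minus the gene's mean over the 12 libraries, cut at 0.8 in either direction; *Eif4ebp1* and *Eif4ebp3* were left out because they had libraries at 0. *Eif1*, *Eif3f*, *Eef1a1* and *Eef1g* are redder in 5xFAD than in WT at 6 months and bluer at 1 month, and *Eif4g1* is the reverse.

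Between 5xFAD and WT, 5 factor genes were called at 6 months and 18 at 1 month, and the 5 called at both ages went in opposite directions. At 6 months *Eif1*, *Eif3f*, *Eef1a1* and *Eef1g* were higher in 5xFAD, by 1.43-fold to 1.8-fold, and *Eif4g1* was lower. These were 4 of 65 (6.15%) higher and 1 (1.54%) lower, where 2.48% of all genes tested were higher and 3.89% lower. In either direction 7.69% of the factor genes were called at 6 months, near the 6.38% of all genes. At 1 month 14 of the 65 (21.5%) were lower in 5xFAD and 4 (6.15%) were higher, where 8.91% of all genes were lower and 10.7% higher. In either direction these were 27.7%, beside 19.6% of all genes. The lower genes were *Eif1*, *Eif1b*, *Eif5a*, *Eef1a1*, *Eef1b2*, *Eef1g*, *Eef1akmt2* and the eIF3 genes *Eif3b*, *Eif3f*, *Eif3g*, *Eif3h*, *Eif3i*, *Eif3k* and *Eif3m*. The higher genes were *Eif4g1*, *Eif4g2*, *Eif1ax* and *Eif4ebp2*. The median log2 fold change of the 65 genes was 0.12 at 6 months and -0.15 at 1 month, beside 0.0028 and -0.045 over all genes. The genotypes did not overlap for 33.8% of the factor genes at 6 months, beside 24.2% of all genes, and for 43.1% at 1 month, beside 37.6%.

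All 5 genes called at 6 months were also called at 1 month, in the opposite direction, and the 2 comparisons share no library. They were 100% of the factor genes called at 6 months and 27.8% of those called at 1 month. Over all genes, 668 were called at both ages in opposite directions, which is 64.5% of those called at 6 months and 21% of those called at 1 month, and 5 in the same direction. Of the 65 genes, 32 (49.2%) had a negative log2 fold change at 1 month and a positive one at 6 months, beside 36.1% of all genes, and 12 (18.5%) had the reverse, beside 31.7%. Opposite directions at the 2 ages were thus common across all genes. Leaving out 1 library at a time gave 4 to 10 called genes at 6 months, with 10 both without replicate 3 of 5xFAD and without replicate 3 of WT. At 1 month it gave 8 to 18, with 8 without replicate 2 of WT and 10, 10 and 11 without replicates 1, 2 and 3 of 5xFAD. Without the 3 libraries richest in ribosomal RNA, 4 genes were called at 6 months and 14 at 1 month. *Eef1g* then lost its call at both ages and *Eef1a1* at 1 month, with no change of sign, and *Eif1*, *Eif3f* and *Eif4g1* were called at both. That setting leaves 1 5xFAD library at 6 months, which is assumed to vary like the other groups.

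**Figure D2:**
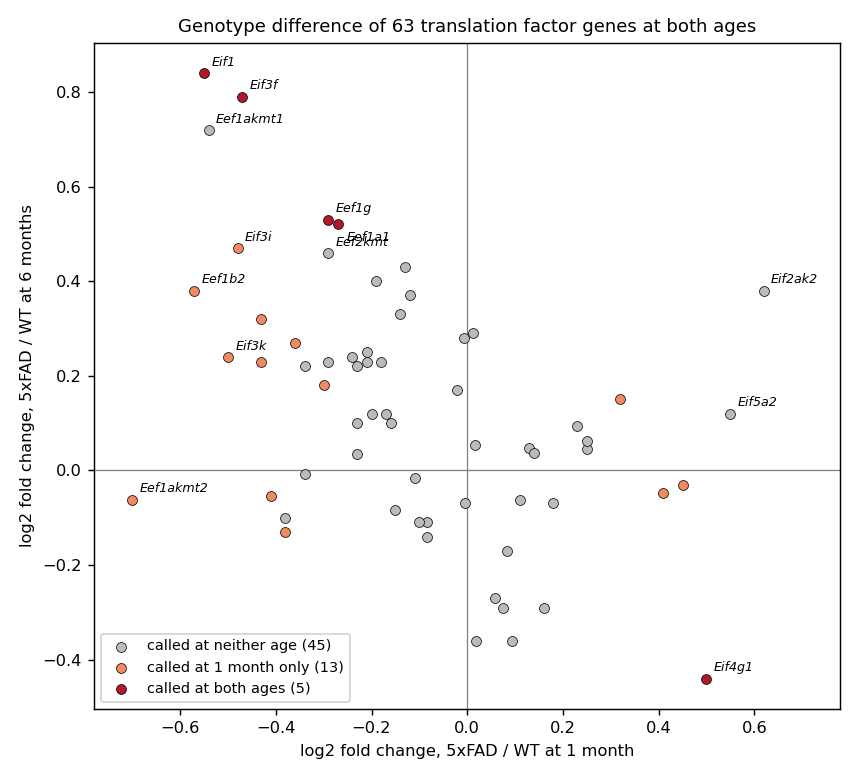
Log2 fold change of 5xFAD over WT at 1 month (horizontal axis) and at 6 months (vertical axis) for 63 translation factor genes, each a point. Dark red points are the 5 genes called at both ages, orange the 13 called at 1 month and not at 6 months, grey the 45 called at neither. The dark red points lie in the upper left quadrant, with *Eif4g1* alone in the lower right.

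*Eif1*, which guards the accuracy of start codon selection (chr11:100319885-100322096, plus strand, GRCm38), passed the test at both ages. At 6 months *Eif1* had 399.9, 338 and 376 CPM in 5xFAD retinas, against 184, 206 and 230.4 CPM in WT retinas. *Eif1* at 1 month had 235, 234 and 217 CPM in 5xFAD retinas, against 333, 356 and 316 CPM in WT retinas. *Eif1* was above every WT library in all 3 5xFAD libraries at 6 months and below every WT library in all 3 at 1 month. *Eif1* had log2 fold changes of 0.84 ± 0.094 at 6 months and -0.55 ± 0.094 at 1 month (edgeR adjusted p = 8.28e-06 and 0.000256). It was 1.8-fold higher in 5xFAD at 6 months and 1.46-fold lower at 1 month. Its close relative *Eif1b* did not follow it at 6 months: *Eif1b* had log2 fold changes of -0.054 ± 0.11 at 6 months and -0.41 ± 0.11 at 1 month (edgeR adjusted p = 0.844 and 0.0136). Per length, the ratio of *Eif1* to *Eif1b* was 4.19, 4.71 and 4.06 in 5xFAD libraries at 6 months, against 1.82, 2.2 and 2.3 in WT libraries. At 1 month the ratio was 3.89, 3.93 and 3.39 in 5xFAD libraries, against 4.53, 4.39 and 4.3 in WT libraries. The WT libraries at 6 months had the lowest ratios of all 12.

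*Eif1ax*, the X-linked gene of eIF1A, which promotes scanning for the start codon, was higher in 5xFAD at 1 month. At 6 months *Eif1ax* had 107, 109 and 122 CPM in 5xFAD retinas, against 111, 123 and 112 CPM in WT retinas. *Eif1ax* at 1 month had 143, 125 and 118 CPM in 5xFAD retinas, against 103, 81.7 and 97.7 CPM in WT retinas. *Eif1ax* was above every WT library in all 3 5xFAD libraries at 1 month, and the genotypes overlapped at 6 months. *Eif1ax* had log2 fold changes of -0.03 ± 0.11 at 6 months and 0.45 ± 0.11 at 1 month (edgeR adjusted p = 0.917 and 0.00474). *Eif6*, which keeps the large ribosomal subunit from joining too early, passed at neither age. At 6 months *Eif6* had 28.3, 46.3 and 28.4 CPM in 5xFAD retinas, against 26.7, 21.6 and 28.3 CPM in WT retinas. *Eif6* at 1 month had 31.4, 31.3 and 27.5 CPM in 5xFAD retinas, against 31.8, 36 and 31.1 CPM in WT retinas. *Eif6* was above every WT library in all 3 5xFAD libraries at 6 months, and the genotypes overlapped at 1 month. *Eif6* had log2 fold changes of 0.43 ± 0.18 at 6 months and -0.13 ± 0.18 at 1 month (edgeR adjusted p = 0.154 and 0.66). Of the 10 start codon and subunit joining genes, the other 6 include *Eif5*, the GTPase activator of eIF2, with log2 fold changes of 0.23 ± 0.10 at 6 months and -0.21 ± 0.10 at 1 month. *Eif5b*, the GTPase of subunit joining, had -0.07 ± 0.12 and 0.18 ± 0.12. Neither passed the test, nor did *Eif1a*, *Eif1ad*, *Eif2a* and *Eif2d*.

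eIF2 and the genes that regulate it did not pass the test between genotypes at either age. This covers 4 eIF2 genes, 4 eIF2 kinases and 5 eIF2B genes. Among all genes tested, 6.38% were called at 6 months and 19.6% at 1 month. Of these eIF2, kinase and eIF2B genes, the unadjusted p was below 0.05 for 3 at 6 months and 2 at 1 month. Under alternatives 2 of them were called. *Eif2s3x* was called higher in 5xFAD at 1 month by the DESeq2 Wald test, with only the libraries compared, and without replicate 1 or replicate 3 of 5xFAD at 6 months. *Eif2s3y* was called with length and GC trends removed. Its log2 values were then 0.47 at 6 months and -0.36 at 1 month (edgeR adjusted p = 0.00509 and 0.0326). Relative to the median of all genes, which the test does not subtract, these values were 0.34 and -0.30. The gamma subunit of eIF2, which binds the initiator tRNA, is encoded on the X chromosome by *Eif2s3x* and on the Y chromosome by *Eif2s3y*. At 6 months *Eif2s3x* had 111, 130.3 and 141 CPM in 5xFAD retinas, against 122, 121 and 128 CPM in WT retinas. *Eif2s3x* at 1 month had 149, 136 and 144 CPM in 5xFAD retinas, against 127, 116 and 117 CPM in WT retinas. *Eif2s3x* was above every WT library in all 3 5xFAD libraries at 1 month, and the genotypes overlapped at 6 months. *Eif2s3x* had log2 fold changes of 0.046 ± 0.097 at 6 months and 0.25 ± 0.098 at 1 month (edgeR adjusted p = 0.851 and 0.0713). At 6 months *Eif2s3y* had 136, 137 and 128 CPM in 5xFAD retinas, against 116, 114 and 112 CPM in WT retinas. *Eif2s3y* at 1 month had 122, 114 and 108 CPM in 5xFAD retinas, against 149, 129.8 and 111 CPM in WT retinas. *Eif2s3y* was above every WT library in all 3 5xFAD libraries at 6 months, and the genotypes overlapped at 1 month. *Eif2s3y* had log2 fold changes of 0.23 ± 0.10 at 6 months and -0.18 ± 0.10 at 1 month (edgeR adjusted p = 0.196 and 0.238). Both genes were thus expressed in all 12 libraries. Pseudogene copies of *Eif2s3x* held at most 7.16% of its counts. *Eif2s2* encodes the beta subunit. At 6 months *Eif2s2* had 58.8, 68.1 and 82.2 CPM in 5xFAD retinas, against 68.1, 65.8 and 85.4 CPM in WT retinas. *Eif2s2* at 1 month had 76.7, 60.1 and 57.5 CPM in 5xFAD retinas, against 68.7, 65.7 and 60.6 CPM in WT retinas. *Eif2s2* values of the genotypes overlapped at both ages. *Eif2s2* had log2 fold changes of -0.068 ± 0.14 at 6 months and -0.0048 ± 0.14 at 1 month (edgeR adjusted p = 0.839 and 0.986). *Eif2s1*, the alpha subunit that the stress kinases phosphorylate, had log2 fold changes of 0.035 ± 0.18 at 6 months and -0.23 ± 0.19 at 1 month.

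The 4 eIF2 kinases answer to different stresses. *Eif2ak1* encodes HRI, the heme-regulated kinase. At 6 months *Eif2ak1* had 28.2, 33.5 and 33.3 CPM in 5xFAD retinas, against 38.2, 44.5 and 39.2 CPM in WT retinas. *Eif2ak1* at 1 month had 33.5, 31.9 and 34.8 CPM in 5xFAD retinas, against 35, 25.6 and 33.3 CPM in WT retinas. *Eif2ak1* was below every WT library in all 3 5xFAD libraries at 6 months, and the genotypes overlapped at 1 month. *Eif2ak1* had log2 fold changes of -0.36 ± 0.14 at 6 months and 0.093 ± 0.15 at 1 month (edgeR adjusted p = 0.143 and 0.709). *Eif2ak2* encodes PKR, which binds double-stranded RNA. At 6 months *Eif2ak2* had 2.73, 3.72 and 5.89 CPM in 5xFAD retinas, against 3.1, 3.87 and 2.51 CPM in WT retinas. *Eif2ak2* at 1 month had 3.99, 2.48 and 9.87 CPM in 5xFAD retinas, against 3.03, 3.32 and 4.28 CPM in WT retinas. *Eif2ak2* values of the genotypes overlapped at both ages. *Eif2ak2* had log2 fold changes of 0.38 ± 0.45 at 6 months and 0.62 ± 0.46 at 1 month (edgeR adjusted p = 0.705 and 0.373). *Eif2ak2* was low in all libraries and spread widely within groups. *Eif2ak3* encodes PERK, the kinase of endoplasmic reticulum stress. At 6 months *Eif2ak3* had 31.7, 41.9 and 43.1 CPM in 5xFAD retinas, against 47.4, 49.2 and 46.2 CPM in WT retinas. *Eif2ak3* at 1 month had 52.5, 43.3 and 45.1 CPM in 5xFAD retinas, against 47.1, 43.8 and 43 CPM in WT retinas. *Eif2ak3* was below every WT library in all 3 5xFAD libraries at 6 months, and the genotypes overlapped at 1 month. *Eif2ak3* had log2 fold changes of -0.29 ± 0.13 at 6 months and 0.074 ± 0.13 at 1 month (edgeR adjusted p = 0.203 and 0.746). *Eif2ak4* encodes GCN2, which senses uncharged tRNA. At 6 months *Eif2ak4* had 33.8, 33.8 and 28.2 CPM in 5xFAD retinas, against 36.2, 37.1 and 28 CPM in WT retinas. *Eif2ak4* at 1 month had 35.3, 31.2 and 33.3 CPM in 5xFAD retinas, against 42.4, 32.5 and 36 CPM in WT retinas. *Eif2ak4* values of the genotypes overlapped at both ages. *Eif2ak4* had log2 fold changes of -0.083 ± 0.15 at 6 months and -0.15 ± 0.15 at 1 month (edgeR adjusted p = 0.818 and 0.524).

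eIF2B is the exchange factor that reloads eIF2 with GTP and is inhibited by phosphorylated eIF2. Its subunit genes *Eif2b1*, *Eif2b2*, *Eif2b3* and *Eif2b4* are given here. At 6 months *Eif2b1* had 25, 17.3 and 27 CPM in 5xFAD retinas, against 17.4, 16.8 and 25.6 CPM in WT retinas. *Eif2b1* at 1 month had 21.3, 16.2 and 19.6 CPM in 5xFAD retinas, against 26.1, 25.2 and 20.8 CPM in WT retinas. *Eif2b1* values of the genotypes overlapped at both ages. *Eif2b1* had log2 fold changes of 0.22 ± 0.20 at 6 months and -0.34 ± 0.20 at 1 month (edgeR adjusted p = 0.603 and 0.263). At 6 months *Eif2b2* had 35.6, 34.2 and 27.2 CPM in 5xFAD retinas, against 29.1, 26.2 and 27.2 CPM in WT retinas. *Eif2b2* at 1 month had 22.9, 27.5 and 19.6 CPM in 5xFAD retinas, against 26.1, 31.9 and 27.7 CPM in WT retinas. *Eif2b2* values of the genotypes overlapped at both ages. *Eif2b2* had log2 fold changes of 0.23 ± 0.16 at 6 months and -0.29 ± 0.16 at 1 month (edgeR adjusted p = 0.445 and 0.23). Neither gene passed at either age. At 6 months *Eif2b3* had 13.3, 22.6 and 24.1 CPM in 5xFAD retinas, against 20.7, 21.2 and 22.6 CPM in WT retinas. *Eif2b3* at 1 month had 14.9, 18.4 and 15.9 CPM in 5xFAD retinas, against 21, 18 and 24.8 CPM in WT retinas. *Eif2b3* values of the genotypes overlapped at both ages. *Eif2b3* had log2 fold changes of -0.10 ± 0.20 at 6 months and -0.38 ± 0.20 at 1 month (edgeR adjusted p = 0.831 and 0.209). At 6 months *Eif2b4* had 37.7, 26 and 29.1 CPM in 5xFAD retinas, against 30.2, 28.8 and 34.3 CPM in WT retinas. *Eif2b4* at 1 month had 31.9, 28.2 and 32.4 CPM in 5xFAD retinas, against 36.1, 42.9 and 37.8 CPM in WT retinas. *Eif2b4* was below every WT library in all 3 5xFAD libraries at 1 month, and the genotypes overlapped at 6 months. *Eif2b4* had log2 fold changes of -0.0076 ± 0.15 at 6 months and -0.34 ± 0.15 at 1 month (edgeR adjusted p = 0.985 and 0.127). *Eif2b5*, the catalytic subunit, had log2 fold changes of 0.054 ± 0.12 at 6 months and 0.016 ± 0.12 at 1 month.

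eIF3 is the scaffold on the small ribosomal subunit. At 1 month 7 of its 14 genes (50%) were lower in 5xFAD, beside 8.91% of all genes, and none higher, with a median log2 fold change of -0.30. At 6 months 1 of 14 (7.14%), *Eif3f*, was higher, beside 2.48% of all genes, with a median of 0.24. With the trends of counts on transcript length and GC content removed, 6 of the 7 genes lost their call at 1 month and *Eif3f* kept it. *Eif3f* encodes a subunit that forms a module with eIF3h and eIF3m (chr7:108934417-108942951, plus strand, GRCm38). At 6 months *Eif3f* had 131, 135 and 131 CPM in 5xFAD retinas, against 70.7, 72.3 and 86.2 CPM in WT retinas. *Eif3f* at 1 month had 97, 101 and 96.7 CPM in 5xFAD retinas, against 115, 165 and 129 CPM in WT retinas. *Eif3f* was above every WT library in all 3 5xFAD libraries at 6 months and below every WT library in all 3 at 1 month. *Eif3f* had log2 fold changes of 0.79 ± 0.12 at 6 months and -0.47 ± 0.12 at 1 month (edgeR adjusted p = 0.00023 and 0.00525). *Eif3f* was 1.73-fold higher in 5xFAD at 6 months. *Eif3h* and *Eif3m* encode the partner subunits. At 6 months *Eif3h* had 136, 103 and 114 CPM in 5xFAD retinas, against 95.2, 99.1 and 107 CPM in WT retinas. *Eif3h* at 1 month had 84.8, 84.6 and 78.1 CPM in 5xFAD retinas, against 106, 126 and 103 CPM in WT retinas. *Eif3h* was below every WT library in all 3 5xFAD libraries at 1 month, and the genotypes overlapped at 6 months. *Eif3h* had log2 fold changes of 0.23 ± 0.11 at 6 months and -0.43 ± 0.11 at 1 month (edgeR adjusted p = 0.245 and 0.00772). At 6 months *Eif3m* had 57.6, 55.1 and 57.4 CPM in 5xFAD retinas, against 45.4, 45 and 45.9 CPM in WT retinas. *Eif3m* at 1 month had 45.1, 49.2 and 43.9 CPM in 5xFAD retinas, against 56.4, 60.1 and 69.4 CPM in WT retinas. *Eif3m* was above every WT library in all 3 5xFAD libraries at 6 months and below every WT library in all 3 at 1 month. *Eif3m* had log2 fold changes of 0.32 ± 0.11 at 6 months and -0.43 ± 0.11 at 1 month (edgeR adjusted p = 0.0903 and 0.00931). Both passed at 1 month, lower in 5xFAD, and not at 6 months. *Eif3l*, which pairs with *Eif3k* in the complex, passed at neither age. At 6 months *Eif3l* had 57.1, 67 and 65.2 CPM in 5xFAD retinas, against 50.5, 46.3 and 46.9 CPM in WT retinas. *Eif3l* at 1 month had 45.5, 37.3 and 47.3 CPM in 5xFAD retinas, against 49.5, 54.1 and 44.4 CPM in WT retinas. *Eif3l* was above every WT library in all 3 5xFAD libraries at 6 months, and the genotypes overlapped at 1 month. *Eif3l* had log2 fold changes of 0.40 ± 0.12 at 6 months and -0.19 ± 0.12 at 1 month (edgeR adjusted p = 0.051 and 0.319). Among the other called subunits at 1 month, *Eif3k* fell by 0.50, *Eif3i* by 0.48, *Eif3b* by 0.38 and *Eif3g* by 0.36 on the log2 scale. The large scaffold gene *Eif3a* did not pass and had log2 fold changes of -0.29 ± 0.093 at 6 months and 0.16 ± 0.093 at 1 month (edgeR adjusted p = 0.0654 and 0.237).

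In the cap-binding group, the scaffold gene *Eif4g1* (chr16:20668313-20692884, plus strand, GRCm38) moved opposite to *Eif1*. At 6 months *Eif4g1* had 177, 170.4 and 159.9 CPM in 5xFAD retinas, against 239.7, 241 and 208 CPM in WT retinas. *Eif4g1* at 1 month had 245, 252 and 247 CPM in 5xFAD retinas, against 164, 156 and 207 CPM in WT retinas. *Eif4g1* was below every WT library in all 3 5xFAD libraries at 6 months and above every WT library in all 3 at 1 month. *Eif4g1* had log2 fold changes of -0.44 ± 0.10 at 6 months and 0.50 ± 0.10 at 1 month (edgeR adjusted p = 0.00962 and 0.00113). *Eif4g1* was 1.36-fold lower in 5xFAD at 6 months and 1.41-fold higher at 1 month. *Eif4g2*, also called DAP5, is a scaffold that does not bind the cap protein eIF4E. At 6 months *Eif4g2* had 1009, 853 and 1072 CPM in 5xFAD retinas, against 872, 909.8 and 869.9 CPM in WT retinas. *Eif4g2* at 1 month had 1142, 1138 and 1062 CPM in 5xFAD retinas, against 938, 829.9 and 917 CPM in WT retinas. *Eif4g2* was above every WT library in all 3 5xFAD libraries at 1 month, and the genotypes overlapped at 6 months. *Eif4g2* had log2 fold changes of 0.15 ± 0.087 at 6 months and 0.32 ± 0.087 at 1 month (edgeR adjusted p = 0.362 and 0.0123). *Eif4a3* encodes a helicase of the exon junction complex. At 6 months *Eif4a3* had 91.7, 73.7 and 66.2 CPM in 5xFAD retinas, against 54.2, 56 and 69.4 CPM in WT retinas. *Eif4a3* at 1 month had 50.3, 61.5 and 60.8 CPM in 5xFAD retinas, against 62.8, 72.2 and 53.3 CPM in WT retinas. *Eif4a3* values of the genotypes overlapped at both ages. *Eif4a3* had log2 fold changes of 0.37 ± 0.14 at 6 months and -0.12 ± 0.14 at 1 month (edgeR adjusted p = 0.121 and 0.586). *Eif4e* encodes the cap-binding protein itself. At 6 months *Eif4e* had 129.6, 93.6 and 131 CPM in 5xFAD retinas, against 111, 105 and 115 CPM in WT retinas. *Eif4e* at 1 month had 94.5, 91.5 and 87.8 CPM in 5xFAD retinas, against 109.6, 109 and 87.8 CPM in WT retinas. *Eif4e* values of the genotypes overlapped at both ages. *Eif4e* had log2 fold changes of 0.10 ± 0.12 at 6 months and -0.16 ± 0.12 at 1 month (edgeR adjusted p = 0.698 and 0.372). The helicase genes *Eif4a1* and *Eif4a2* had log2 fold changes of 0.10 ± 0.089 and -0.017 ± 0.092 at 6 months, and -0.23 ± 0.089 and -0.11 ± 0.092 at 1 month. None of the other members of this group passed at either age.

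The 4E-BP proteins bind eIF4E and block cap-dependent initiation. *Eif4ebp2*, the form best known from neurons, was higher in 5xFAD at 1 month. At 6 months *Eif4ebp2* had 84.2, 77.4 and 85.1 CPM in 5xFAD retinas, against 82.3, 87.1 and 85.6 CPM in WT retinas. *Eif4ebp2* at 1 month had 92.1, 100.1 and 105 CPM in 5xFAD retinas, against 66.1, 72.5 and 84.9 CPM in WT retinas. *Eif4ebp2* was above every WT library in all 3 5xFAD libraries at 1 month, and the genotypes overlapped at 6 months. *Eif4ebp2* had log2 fold changes of -0.048 ± 0.11 at 6 months and 0.41 ± 0.11 at 1 month (edgeR adjusted p = 0.859 and 0.00798). *Eif4ebp1* was at the limit of detection. At 6 months *Eif4ebp1* had 0, 0.323 and 0.71 CPM in 5xFAD retinas, against 0.741, 1.22 and 0.719 CPM in WT retinas. *Eif4ebp1* at 1 month had 0.608, 0.368 and 1.17 CPM in 5xFAD retinas, against 0.336, 1.35 and 0 CPM in WT retinas. *Eif4ebp1* was below every WT library in all 3 5xFAD libraries at 6 months, and the genotypes overlapped at 1 month. *Eif4ebp3* ranged from 0 to 10.3 CPM and scattered within groups. At 6 months *Eif4ebp3* had 1.36, 10.3 and 5.54 CPM in 5xFAD retinas, against 1.48, 1.48 and 2.16 CPM in WT retinas. *Eif4ebp3* at 1 month had 0, 1.29 and 0 CPM in 5xFAD retinas, against 4.79, 0.18 and 6.51 CPM in WT retinas. *Eif4ebp3* values of the genotypes overlapped at both ages. Neither passed the test, with edgeR adjusted p of 0.605 and 0.457 at 6 months and 0.879 and 0.138 at 1 month. Their log2 fold changes depend on the prior count and are not given. *Eif4enif1*, which carries eIF4E into the nucleus, had log2 fold changes of -0.11 ± 0.12 at 6 months and -0.10 ± 0.12 at 1 month.

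Of the 8 elongation genes, *Eef1a1* and *Eef1g* (25%) were higher in 5xFAD at 6 months, beside 2.48% of all genes. At 1 month *Eef1a1*, *Eef1b2*, *Eef1g* and *Eif5a* (50%) were lower, beside 8.91%. With length and GC trends removed, each of these lost its call at 1 month, and *Eef1a2* was called higher. At 6 months *Eef1a1* and *Eef1g* then kept their call, and *Eef1b2* and *Eef2* were also called higher. *Eef1a1* (chr9:78478449-78489151, minus strand, GRCm38) encodes the form of eEF1A found in most tissues. At 6 months *Eef1a1* had 1799, 1696 and 1640.2 CPM in 5xFAD retinas, against 1115, 1098 and 1368 CPM in WT retinas. *Eef1a1* at 1 month had 1384, 1462 and 1409.5 CPM in 5xFAD retinas, against 1665, 1804 and 1651 CPM in WT retinas. *Eef1a1* was above every WT library in all 3 5xFAD libraries at 6 months and below every WT library in all 3 at 1 month. *Eef1a1* had log2 fold changes of 0.52 ± 0.087 at 6 months and -0.27 ± 0.087 at 1 month (edgeR adjusted p = 0.000868 and 0.0323). *Eef1a2* encodes the form of neurons and muscle, and it did not follow. At 6 months *Eef1a2* had 208, 239 and 224 CPM in 5xFAD retinas, against 193, 231 and 225 CPM in WT retinas. *Eef1a2* at 1 month had 218, 280.05 and 252 CPM in 5xFAD retinas, against 193, 241 and 253 CPM in WT retinas. *Eef1a2* values of the genotypes overlapped at both ages. *Eef1a2* had log2 fold changes of 0.048 ± 0.11 at 6 months and 0.13 ± 0.11 at 1 month (edgeR adjusted p = 0.863 and 0.465). Per length, the ratio of *Eef1a1* to *Eef1a2* was 10.2, 8.32 and 8.77 in 5xFAD libraries at 6 months, against 6.86, 5.62 and 7.2 in WT libraries. At 1 month this ratio was 7.7, 6.4 and 6.7 in 5xFAD libraries, against 10.8, 9.61 and 8 in WT libraries. The genotypes did not overlap in this ratio at either age, with 5xFAD above WT at 6 months and below it at 1 month.

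*Eef1b2* and *Eef1g* encode subunits of the exchange factor of eEF1A. At 6 months *Eef1g* had 240.3, 272 and 238 CPM in 5xFAD retinas, against 151, 167 and 202 CPM in WT retinas. *Eef1g* at 1 month had 176, 183 and 174 CPM in 5xFAD retinas, against 207, 239 and 206 CPM in WT retinas. *Eef1g* was above every WT library in all 3 5xFAD libraries at 6 months and below every WT library in all 3 at 1 month. *Eef1g* had log2 fold changes of 0.53 ± 0.10 at 6 months and -0.29 ± 0.10 at 1 month (edgeR adjusted p = 0.0029 and 0.047). At 6 months *Eef1b2* had 82, 87.5 and 83.1 CPM in 5xFAD retinas, against 63.6, 59.6 and 71.1 CPM in WT retinas. *Eef1b2* at 1 month had 61.2, 54.5 and 46.4 CPM in 5xFAD retinas, against 79.1, 90.8 and 70.6 CPM in WT retinas. *Eef1b2* was above every WT library in all 3 5xFAD libraries at 6 months and below every WT library in all 3 at 1 month. *Eef1b2* had log2 fold changes of 0.38 ± 0.12 at 6 months and -0.57 ± 0.12 at 1 month (edgeR adjusted p = 0.0576 and 0.00177). *Eef1g* has pseudogene copies that held at most 4.93% of its counts. *Eef2* encodes the translocation factor and did not pass at either age. At 6 months *Eef2* had 1223, 1208 and 1007 CPM in 5xFAD retinas, against 882, 912 and 1017 CPM in WT retinas. *Eef2* at 1 month had 1049.5, 1154 and 1114 CPM in 5xFAD retinas, against 1005, 1161 and 1121 CPM in WT retinas. *Eef2* values of the genotypes overlapped at both ages. *Eef2* had log2 fold changes of 0.29 ± 0.09 at 6 months and 0.013 ± 0.09 at 1 month (edgeR adjusted p = 0.0551 and 0.942). *Eif5a* encodes the hypusinated factor that helps ribosomes through proline-rich stretches, and *Eif5a2* its rarer relative. At 6 months *Eif5a* had 226, 199.7 and 172 CPM in 5xFAD retinas, against 157, 166 and 201 CPM in WT retinas. *Eif5a* at 1 month had 149, 153 and 152 CPM in 5xFAD retinas, against 181, 200.5 and 180.3 CPM in WT retinas. *Eif5a* was below every WT library in all 3 5xFAD libraries at 1 month, and the genotypes overlapped at 6 months. *Eif5a* had log2 fold changes of 0.18 ± 0.11 at 6 months and -0.30 ± 0.11 at 1 month (edgeR adjusted p = 0.335 and 0.0458). At 6 months *Eif5a2* had 32.1, 15.5 and 27.1 CPM in 5xFAD retinas, against 22.9, 23 and 22.6 CPM in WT retinas. *Eif5a2* at 1 month had 31.2, 41.8 and 29.4 CPM in 5xFAD retinas, against 22.7, 21 and 26.1 CPM in WT retinas. *Eif5a2* was above every WT library in all 3 5xFAD libraries at 1 month, and the genotypes overlapped at 6 months. *Eif5a2* had log2 fold changes of 0.12 ± 0.20 at 6 months and 0.55 ± 0.20 at 1 month (edgeR adjusted p = 0.796 and 0.0599). At 1 month the 2 relatives thus had log2 fold changes of opposite sign, and only *Eif5a* passed.

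Enzymes that modify or regulate the elongation factors were of low abundance. *Eef1akmt1* and *Eef1akmt2* methylate lysines of eEF1A, and *Eef2kmt* a lysine of eEF2. At 6 months *Eef1akmt1* had 17.6, 15 and 12.1 CPM in 5xFAD retinas, against 8.96, 7.79 and 10.4 CPM in WT retinas. *Eef1akmt1* at 1 month had 7.55, 10.03 and 8.25 CPM in 5xFAD retinas, against 12.8, 12.9 and 11.8 CPM in WT retinas. *Eef1akmt1* was above every WT library in all 3 5xFAD libraries at 6 months and below every WT library in all 3 at 1 month. *Eef1akmt1* had log2 fold changes of 0.72 ± 0.22 at 6 months and -0.54 ± 0.23 at 1 month (edgeR adjusted p = 0.0532 and 0.0991). At 6 months *Eef1akmt2* had 17.4, 19.9 and 19.7 CPM in 5xFAD retinas, against 18.3, 19.6 and 21.7 CPM in WT retinas. *Eef1akmt2* at 1 month had 11, 11 and 15 CPM in 5xFAD retinas, against 22.1, 16.6 and 21.2 CPM in WT retinas. *Eef1akmt2* was below every WT library in all 3 5xFAD libraries at 1 month, and the genotypes overlapped at 6 months. *Eef1akmt2* had log2 fold changes of -0.062 ± 0.18 at 6 months and -0.70 ± 0.19 at 1 month (edgeR adjusted p = 0.898 and 0.0107). Of these *Eef1akmt2* passed at 1 month. At 6 months *Eef2kmt* had 18.3, 17.9 and 17 CPM in 5xFAD retinas, against 13, 12.2 and 13.4 CPM in WT retinas. *Eef2kmt* at 1 month had 17.9, 15.5 and 15.3 CPM in 5xFAD retinas, against 15.4, 21.7 and 22.7 CPM in WT retinas. *Eef2kmt* was above every WT library in all 3 5xFAD libraries at 6 months, and the genotypes overlapped at 1 month. *Eef2kmt* had log2 fold changes of 0.46 ± 0.19 at 6 months and -0.29 ± 0.19 at 1 month (edgeR adjusted p = 0.145 and 0.29). *Eef2k*, the kinase that inhibits eEF2, had log2 fold changes of 0.093 ± 0.24 at 6 months and 0.23 ± 0.25 at 1 month and did not pass. *Eef1e1*, a member of the multisynthetase complex, had 0.25 ± 0.16 and -0.21 ± 0.16. *Eef1akmt4*, *Eef1akmt3* and *Eif4e1b* did not exceed 1.45, 0.504 and 0.0897 CPM in any library.

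**Figure D3:**
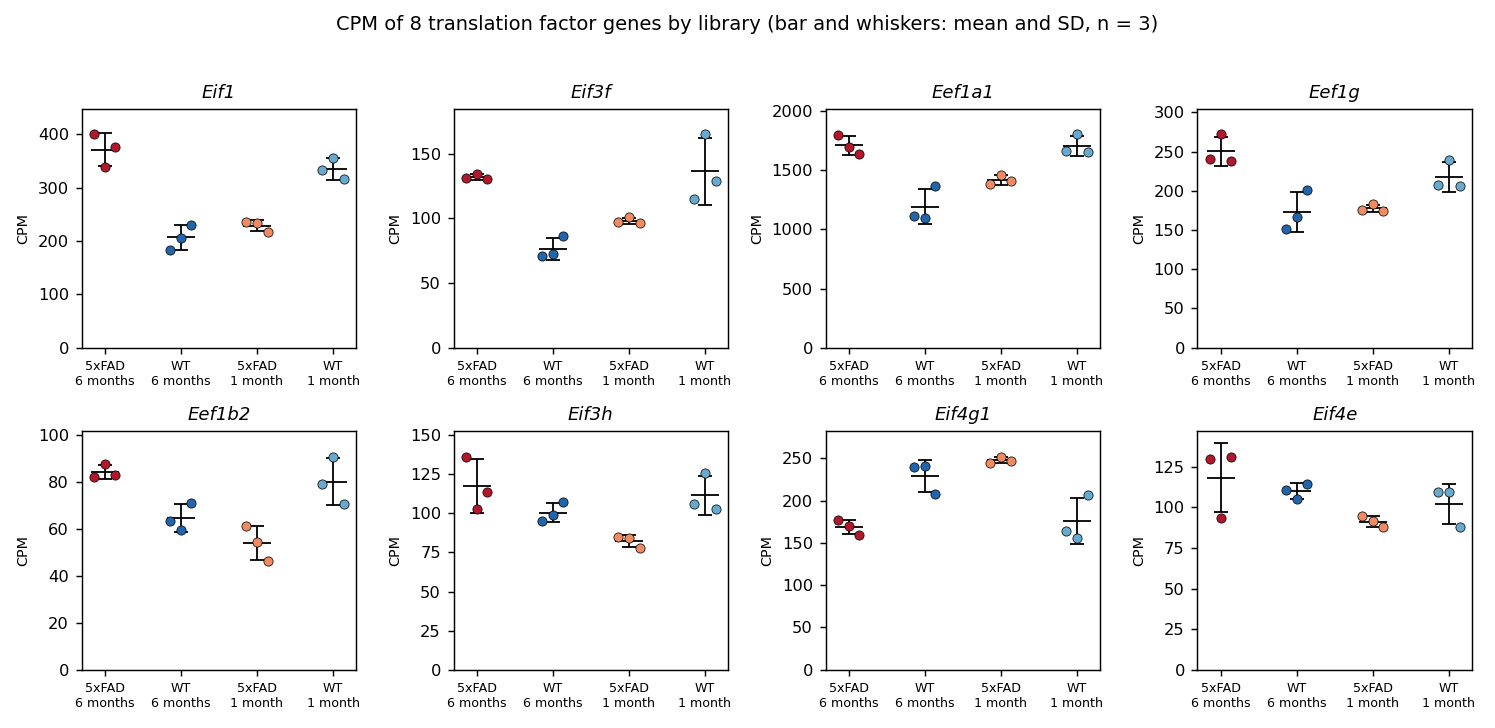
CPM of 8 translation factor genes in every library (points), with the mean and SD of the 3 libraries of each group. *Eif1*, *Eif3f*, *Eef1a1* and *Eef1g* lie above WT in 5xFAD at 6 months and below WT at 1 month, *Eif4g1* does the opposite, and *Eif4e* overlaps at both ages.

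Between the ages, the genotypes went different ways. In 5xFAD retinas 19 of the 65 genes were higher at 6 months than at 1 month and 1, *Eif4g1*, was lower, where 10.8% of all genes were higher and 12.4% lower. In WT retinas 2 of the 65, *Eif3a* and *Eif4g1*, were higher at 6 months and 7 were lower, where 6.01% of all genes were higher and 4.49% lower. The 7 were *Eif1*, *Eif3f*, *Eif3k*, *Eif3m*, *Eef1a1*, *Eef1g* and *Eef2kmt*. The median log2 fold change of the 65 genes was 0.19 in 5xFAD and -0.034 in WT, beside 0.026 and -0.012 over all genes. The ages did not overlap for 43.1% of the factor genes in 5xFAD, beside 36.5% of all genes, and for 33.8% in WT, beside 30.7%. These comparisons share libraries with those between genotypes. They also ran along transcript length. The Spearman correlation of length with the log2 fold change was -0.73 in 5xFAD and 0.54 in WT across the 65 genes. Across 16205 genes tested with a known length it was -0.47 and 0.27. With length and GC trends removed, 12 of the 20 called genes in 5xFAD and 7 of 9 in WT kept their call. In 5xFAD, *Eif1* had a log2 fold change of 0.70 ± 0.094, *Eef1b2* of 0.64 ± 0.12, *Eif3g* of 0.59 ± 0.13 and *Eif1b* of 0.58 ± 0.11 between 6 months and 1 month. In WT, *Eif3f* had -0.83 ± 0.12, *Eif1* -0.70 ± 0.094 and *Eef1a1* -0.52 ± 0.087. Of the eEF1 subunit genes, 4 of 5 were higher with age in 5xFAD and 2 of 5 lower with age in WT. Leaving out 1 library gave 14 to 21 called genes in 5xFAD. In WT it gave 3 to 10, with 3 and 4 without replicates 1 and 2 of the 6-month libraries and 5 each without replicates 2 and 3 of the 1-month libraries.

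The difference between the genotype effects of the 2 ages passed the test for 21 of the 65 genes. It was positive, 6 months minus 1 month, for 17 genes and negative for 4, where 11.7% of all genes were positive and 13.3% negative. The median was 0.28, beside 0.059 over all genes. The 6 smallest p belonged to *Eif1* at 1.39 ± 0.13, *Eif3f* at 1.26 ± 0.16, *Eif4g1* at -0.94 ± 0.14, *Eef1a1* at 0.79 ± 0.12, *Eef1g* at 0.82 ± 0.14 and *Eef1b2* at 0.95 ± 0.17 on the log2 scale (edgeR adjusted p from 2.02e-07 to 0.000251). By role the 21 were 9 of 14 eIF3 genes, with *Eif3a* alone negative, and 4 of 8 elongation genes. They also were 3 of 10 start codon genes, 2 of 5 tested elongation regulators, and 1 each of the eIF2, eIF4 and 4E-BP groups. No eIF2 kinase and no eIF2B gene was among them. Without replicate 2 of WT at 6 months, 13 of the 65 passed. The Spearman correlation of transcript length with this difference was -0.80 across the 65 genes and -0.47 across 16205 genes with a known length. With length and GC trends removed, 14 of the 21 kept their call.

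The genotype differences ran along transcript length. The 4 genes higher in 5xFAD at 1 month had transcripts of 5025 to 5783 nt, and the 14 lower genes 776 to 2771 nt, as the mean over isoforms weighted by their counts. Across the 65 genes the Spearman correlation of length with the log2 fold change was -0.54 at 6 months and 0.79 at 1 month. Across 16205 genes tested with a known length it was -0.31 and 0.48. These are descriptions over genes that share the same libraries. Among the 22 shortest factor genes, at most 1796 nt, 11 (50%) were lower at 1 month, beside 20.2% of all tested genes in that length range. Among the 22 longest, from 3080 nt, 4 (18.2%) were higher, beside 21.2% of all genes of at least 2972 nt. Per length, in TPM, the factor genes together held 0.964% of mRNA in 5xFAD and 0.970% in WT at 1 month, while per count they held 0.874% and 0.928%. At 6 months they held 0.962% in 5xFAD and 0.847% in WT per length, and 0.948% and 0.835% per count.

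**Figure D4:**
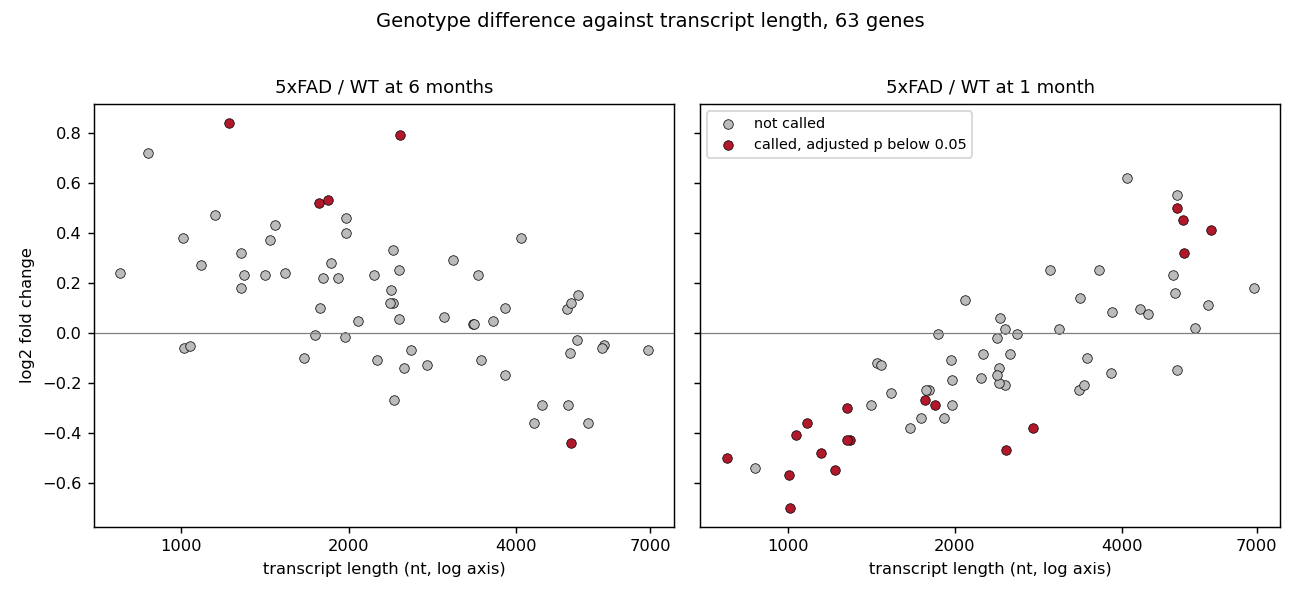
Log2 fold change of 5xFAD over WT against transcript length (log axis, nt) for 63 translation factor genes at 6 months (left) and at 1 month (right), called genes in red. At 1 month the points climb with length, from *Eef1akmt2* at -0.70 to *Eif4g1* at 0.50 among called genes, and at 6 months they slope the other way.

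When each library's trend of counts on transcript length and GC content was removed, 7 factor genes were called at 1 month, 2 higher and 5 lower, where 4.13% of all genes were higher and 7.01% lower. At 6 months 16 were higher and 1 lower, where 9.42% of all genes were higher and 1.97% lower. The removal moved the median of all genes at 6 months to 0.13, and at 1 month to -0.06, so values are given relative to these medians. The calls were made on the values before the median was subtracted. *Eif1* was then 0.80 higher at 6 months and its value at 1 month was -0.23. *Eif3f* had 0.77 and -0.39, and *Eef1a1* 0.50 and -0.07. *Eif4g1* had -0.40 and 0.39. At 1 month 3 of the 18 called genes kept their call, *Eif1*, *Eif3f* and *Eif4g1*, and 15 lost it. The 15 were *Eif3b*, *Eif3g*, *Eif3h*, *Eif3i*, *Eif3k*, *Eif3m*, *Eef1a1*, *Eef1b2*, *Eef1g*, *Eif5a*, *Eef1akmt2*, *Eif1b*, *Eif1ax*, *Eif4g2* and *Eif4ebp2*. Before the median was subtracted, *Eif4g2* at -0.01, *Eif3g* at 0.02 and *Eif5a* at 0.03 had changed sign. Relative to the median, *Eif4g2* was at 0.04, which is no change of sign. *Eif3g* and *Eif5a* were each at 0.08 on that scale, and *Eif1b* was at 0.01. The other 4 genes then called were *Eef1a2*, higher in 5xFAD, and *Eif5*, *Eif4e* and *Eif2s3y*, lower. At 6 months all 5 called genes kept their call and 12 others were called higher. These were *Eif2s3y*, *Eif3d*, *Eif3e*, *Eif3i*, *Eif3l*, *Eif3m*, *Eif4a3*, *Eif4g2*, *Eif5*, *Eef1b2*, *Eef1akmt1* and *Eef2*. The correlation with length among the 65 genes was then -0.34 at 6 months and 0.09 at 1 month.

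Transcripts gave a second view of the same libraries. The deposited transcript table holds 429 transcripts of the 68 genes, and 258 had enough counts to test. At 6 months 4 were higher in 5xFAD and 0 lower, where 0.165% of all transcripts were higher and 0.322% lower (0.488% called). At 1 month 2 were higher and 3 lower, where 1.6% of all transcripts were higher and 0.922% lower (2.52% called). The largest change at 1 month was in *Eif4g3-215*, a protein-coding transcript of the eIF4G scaffold gene *Eif4g3*. At 6 months *Eif4g3-215* had 29.6, 41.4 and 30.6 CPM in 5xFAD retinas, against 60.3, 74.2 and 49.2 CPM in WT retinas. *Eif4g3-215* at 1 month had 111, 119 and 100.3 CPM in 5xFAD retinas, against 34.9, 31.5 and 34.7 CPM in WT retinas. It made up 40.5, 47 and 35.8% of the gene's transcript counts in 5xFAD at 1 month, against 13.6, 12.6 and 14.9% in WT. *Eif4g3-215* had log2 fold changes of -0.85 ± 0.17 at 6 months and 1.71 ± 0.18 at 1 month (edgeR adjusted p over all transcripts = 0.0663 and 0.00324). The gene as a whole had log2 fold changes of -0.063 ± 0.084 and 0.11 ± 0.084 and did not pass. *Eif4g1-201*, a protein-coding transcript of *Eif4g1*, was higher in 5xFAD at 1 month. At 6 months *Eif4g1-201* had 38.4, 61.1 and 75.1 CPM in 5xFAD retinas, against 107, 110.5 and 102 CPM in WT retinas. *Eif4g1-201* at 1 month had 139.9, 126 and 171 CPM in 5xFAD retinas, against 56.3, 44.4 and 84 CPM in WT retinas. *Eif4g1-201* had log2 fold changes of -0.87 ± 0.27 at 6 months and 1.24 ± 0.27 at 1 month (edgeR adjusted p over all transcripts = 0.206 and 0.0412). Each transcript lay above WT in all 3 5xFAD libraries at 1 month and below WT in all 3 at 6 months.

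*Eif5-212* was lower in 5xFAD at 1 month. At 6 months *Eif5-212* had 169, 144 and 176 CPM in 5xFAD retinas, against 110.2, 134 and 125 CPM in WT retinas. *Eif5-212* at 1 month had 74.9, 97.2 and 87 CPM in 5xFAD retinas, against 142, 162 and 135 CPM in WT retinas. *Eif5-212* had log2 fold changes of 0.41 ± 0.13 at 6 months and -0.76 ± 0.13 at 1 month (edgeR adjusted p over all transcripts = 0.216 and 0.0168). Of *Eif1*, the coding transcript *Eif1-201* and the processed transcript *Eif1-202* were called at both ages. At 6 months *Eif1-201* had 342, 287 and 329 CPM in 5xFAD retinas, against 171, 192 and 216 CPM in WT retinas. *Eif1-201* at 1 month had 214, 213 and 195 CPM in 5xFAD retinas, against 293, 304 and 269.5 CPM in WT retinas. *Eif1-201* had log2 fold changes of 0.73 ± 0.10 at 6 months and -0.48 ± 0.10 at 1 month (edgeR adjusted p over all transcripts = 0.0175 and 0.0368). At 6 months *Eif1-202* had 38.3, 39.4 and 49.6 CPM in 5xFAD retinas, against 10.6, 16 and 17.3 CPM in WT retinas. *Eif1-202* at 1 month had 17.3, 18.2 and 18.9 CPM in 5xFAD retinas, against 34.2, 48.6 and 36.1 CPM in WT retinas. *Eif1-202* had log2 fold changes of 1.54 ± 0.22 at 6 months and -1.13 ± 0.22 at 1 month (edgeR adjusted p over all transcripts = 0.0209 and 0.0276). Both lay above WT in all 3 5xFAD libraries at 6 months and below WT in all 3 at 1 month. At 6 months *Eif3f-201*, at 0.76 ± 0.13, and *Eef1a1-201*, at 0.47 ± 0.08 on the log2 scale, were also higher in 5xFAD. Counts of isoforms that share exons are estimates, and the calls varied with the libraries used. Without the 3 libraries richest in ribosomal RNA, 0 were called at 6 months and 1 at 1 month. Leaving out single libraries gave 0 to 6 calls at 6 months. There were 0 without replicate 1 or 2 of WT, 1 without replicate 1 of 5xFAD, and 2 without replicate 2 of 5xFAD or any 5xFAD library of 1 month. At 1 month it gave 1 to 7, with 1 without replicate 3 of 5xFAD or replicate 2 of WT and 2 without replicate 1 or 2 of 5xFAD. Without replicate 1 of WT, or replicate 2 of WT at 6 months, it gave 3.

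Retained introns, which the study asked about, gave no called difference between genotypes in these genes. Of 123 transcripts of the retained-intron class, 73 were tested and edgeR called 0 at either age. The unadjusted p was below 0.05 for 4 at 6 months and 4 at 1 month. Of all transcripts tested, 0.488% were called at 6 months and 2.52% at 1 month. With shares that low, 0 calls among 73 does not set this class apart. The class held 3.27 to 3.52% of the factor genes' transcript counts in 5xFAD and 3.27 to 4.27% in WT at 6 months, and 3.44 to 3.95% in 5xFAD and 2.92 to 3.79% in WT at 1 month. The genotypes overlapped at both ages. Over all genes the share was 5.83 to 6.77% in the 12 libraries.

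**Figure D5:**
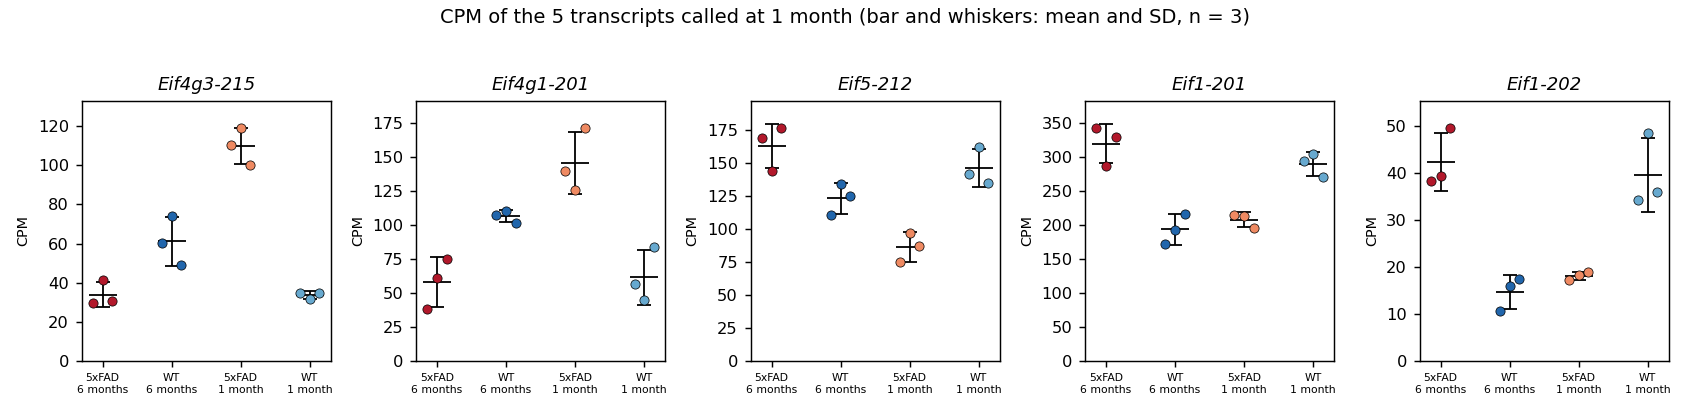
CPM of the 5 factor gene transcripts called at 1 month in every library (points), with the mean and SD of the 3 libraries of each group. *Eif4g3-215* and *Eif4g1-201* are highest in 5xFAD at 1 month, and *Eif1-201* and *Eif1-202* are lower there than in WT.

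Genes that act with the factors were read from the same fit, in which 2.48% of all genes were higher and 3.89% lower in 5xFAD at 6 months, and 10.7% higher and 8.91% lower at 1 month. Of 9 factor genes known as TOP mRNAs, whose translation mTOR controls, 3 (33.3%) were higher in 5xFAD at 6 months and 5 (55.6%) were lower at 1 month, with medians of 0.29 and -0.27. These 9 are among the factor genes already counted above. With length and GC trends removed, *Eef1a1*, *Eef1b2*, *Eef1g* and *Eif3h* lost their call at 1 month and *Eif3f* kept it. At 6 months *Eef1a1*, *Eef1g* and *Eif3f* kept their call, and *Eef1b2*, *Eef2* and *Eif3e* were then also called. *Eef2* and *Eif4b*, which are on this list, were called at neither age. Of 16 genes of mTOR and cap signalling, none was higher and 2 (12.5%) were lower at 6 months, and 3 (18.8%) were higher and 2 (12.5%) lower at 1 month, with medians of -0.045 and 0.092. *Cyfip2*, a partner of the fragile X protein FMRP, had -0.39 ± 0.10, adjusted p = 0.0187 at 6 months, and 0.46 ± 0.10, adjusted p = 0.00177 at 1 month (log2 fold changes, edgeR). *Larp1*, which represses TOP mRNAs, had -0.33 ± 0.10, adjusted p = 0.0479, and 0.38 ± 0.10, adjusted p = 0.00949. Both were lower in 5xFAD at 6 months and higher at 1 month. *Mtor* itself had -0.28 ± 0.10, adjusted p = 0.107, and 0.41 ± 0.10, adjusted p = 0.0068. *Rheb*, the small GTPase that activates mTOR, and the S6 kinase gene *Rps6kb2* were lower at 1 month, at -0.41 and -0.52. For these signalling genes, values with length and GC trends removed are not given. The part of transcript length in their differences was not tested.

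Targets of the integrated stress response were read beside 6.38% of all genes called at 6 months and 19.6% at 1 month. Of 14 genes none passed at 6 months and 1 (7.14%), *Psat1* of serine synthesis, was lower in 5xFAD at 1 month (-0.48 ± 0.16, adjusted p = 0.0387), with an unadjusted p below 0.05 for 5 genes at each age. The transcription factor gene *Atf4* had log2 fold changes of -0.17 at 6 months and -0.22 at 1 month between genotypes (edgeR adjusted p = 0.352 and 0.122). *Atf4* was higher at 6 months than at 1 month in both genotypes, by 0.53 in 5xFAD and 0.48 in WT. Of 9 enzymes that make hypusine on eIF5A or diphthamide on eEF2, 2 (22.2%) were higher in 5xFAD at 6 months, beside 2.48% of all genes, and 1 (11.1%) was lower at 1 month, beside 8.91%. *Dhps*, which begins hypusine synthesis, had 0.76 ± 0.17, adjusted p = 0.00942 at 6 months, and -0.51 ± 0.17, adjusted p = 0.0422 at 1 month. *Dph3* of diphthamide synthesis had 0.52 ± 0.15, adjusted p = 0.0364, and -0.37 ± 0.15, adjusted p = 0.0873.

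Of 22 aminoacyl-tRNA synthetase and scaffold genes tested, 1 (4.55%) was higher in 5xFAD at 6 months, beside 2.48% of all genes, and 4 (18.2%) were lower at 1 month, beside 8.91%. The scaffold gene *Aimp1* was called at both ages, at 0.50 ± 0.15, adjusted p = 0.0422 and at -0.59 ± 0.15, adjusted p = 0.00681. *Farsa*, *Farsb* and *Vars* were lower at 1 month, at -0.33, -0.47 and -0.42 on the log2 scale. Of 16 genes of termination, recycling and poly(A) binding, none was called at 6 months, with an unadjusted p below 0.05 for 3, and 2 (12.5%) were lower at 1 month, beside 8.91% of all genes. They were *Paip2*, an inhibitor of poly(A)-binding protein, at -0.45, and *Mcts2*, a retrocopy of the reinitiation factor gene *Mcts1*, at -0.92.

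Pigment epithelium markers and 1 lens marker differed between genotypes at 1 month. Of 6 pigment epithelium markers tested, 5 were lower in 5xFAD, beside 8.91% of all genes. *Cryaa*, the 1 of 5 lens markers that could be tested, was higher, beside 10.7% of all genes. Of 8 photoreceptor markers, 4 were higher in 5xFAD at 6 months, beside 2.48% of all genes. None was called at 1 month, beside 19.6% of all genes. No blood, microglia or skeletal muscle marker tested (5, 6 and 2 genes) was called between genotypes at either age. At 6 months 6.38% of all genes were called. The summed level of 7 pigment epithelium markers was 21.4 to 33.8 CPM in 5xFAD and 69.1 to 142 CPM in WT at 1 month, and 49.7 to 81.8 CPM in 5xFAD and 49.8 to 104 CPM in WT at 6 months. The 5 lens markers summed to 4.95 to 45.2 CPM in 5xFAD and 0 to 0.629 CPM in WT at 1 month, and did not exceed 1.05 CPM at 6 months. *Lim2* of the lens was at 0 in all 12 libraries. The 5 blood markers summed to 81.6 to 128 CPM in 5xFAD and 66.7 to 155 CPM in WT at 1 month, and to 20.9 to 29.3 CPM in 5xFAD and 12.1 to 16.6 CPM in WT at 6 months. Microglia markers summed to 36.1 to 41.8 CPM in 5xFAD and 45.1 to 47.1 CPM in WT at 1 month, and 43.7 to 55.3 CPM in 5xFAD and 41.6 to 46.1 CPM in WT at 6 months. Skeletal muscle markers did not exceed 6.55 CPM. The part of these cells, and of the pseudogene and ribosomal RNA shares, in the factor genes' differences was not tested.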

How the data were processed

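The authors deposited expected counts per gene and per transcript for 12 retina libraries, not normalised. Per the submitters' processing notes, Trim Galore 0.6.6, STAR 2.7.1a, RSEM 1.3.3 and DESeq2 1.32.0 were used with GRCm38.p6, and the annotation is not given in the sources used here. Library preparation was unstranded, per the labels' protocols. The deposited expected counts were first rounded to integers. The test was edgeR 4.0.16 (R 4.3.3): TMM scaling, filterByExpr by group, robust quasi-likelihood F tests, all 12 libraries in 1 fit with 8 residual degrees of freedom, and Benjamini-Hochberg adjustment over all 16233 genes or 45326 transcripts tested. The approximate SE is the absolute log2 fold change over the square root of F. Of 55487 genes and 142699 transcripts, 55227 and 141469 matched GENCODE M21 by identifier. TPM came from transcript expected counts over transcript length. Precision at 10.9 to 19.6 M counts is set by the spread between replicates: chi-square per degree of freedom was 4.13 to 28.4, so no library copies another.

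The genes and lists were chosen with earlier results of these data known. Given in full are the 8 smallest p among called genes without overlap per genotype comparison, up to 2 genes per role, the 6 smallest interaction p, 14 fixed genes, up to 3 genes per pathway list and 4 transcripts per comparison. Figures also plot other members. Alternatives were DESeq2 1.42.0 size factors and Wald test, library size alone, 2 other filters, the replicate number as a block, only the libraries compared, removal of length and GC trends (splines with 4 degrees of freedom), libraries left out, and pseudogene, mitochondrial and ribosomal RNA genes left out. Pseudogene copies were found with BLAST 2.17.0+ (at least 90% identity over 50% of the transcript). The code was tested on simulated counts. Figures used Python 3.11.15 and matplotlib 3.10.9. Replicate numbers did not pair the samples.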

Additional observations from a re-analysis of the deposited data

Results flagged for a closer look

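For 21 factor genes the difference between 5xFAD and WT at 6 months departed from that at 1 month, by the edgeR interaction test over all genes. Each value here is the log2 fold change of 5xFAD over WT at 6 months minus that at 1 month. The genes called at both ages in opposite directions had *Eif1* 1.39, *Eif3f* 1.26, *Eef1a1* 0.79 and *Eef1g* 0.82, with *Eif4g1* -0.94 the other way. Other eIF3 genes had *Eif3m* 0.75, *Eif3i* 0.95, *Eif3h* 0.66, *Eif3k* 0.74, *Eif3g* 0.63, *Eif3l* 0.59 and *Eif3e* 0.48. Elongation, start codon and remaining genes had *Eef1b2* 0.95, *Eef1akmt1* 1.26, *Eif5a* 0.49, *Eif5* 0.44, *Eef2kmt* 0.76 and *Eif2s3y* 0.41. Negative values besides *Eif4g1* were *Eif3a* -0.45, *Eif1ax* -0.48 and *Eif4ebp2* -0.46. The groups have 3 libraries each, too few for a search for single outlying libraries. No explanation of these values was tested.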

How the results depend on the processing

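Counts of called factor genes were 5 between genotypes at 6 months, 18 at 1 month, 9 and 20 between the ages in WT and in 5xFAD, and 21 for the interaction. With length and GC trends removed they were 17 at 6 months and 7 at 1 month, and with the replicate block as well 14 and 7. Of the genes called, the removal kept 5 of 5 at 6 months, 3 of 18 at 1 month, 7 of 9 in WT, 12 of 20 in 5xFAD and 14 of 21 in the interaction. Among genes called with or without it, the removal reversed the log2 value of 3 at 1 month (*Eif4g2* -0.01, *Eif3g* 0.02, *Eif5a* 0.03, or 0.02 with the block), of *Eif4g3* between the ages in 5xFAD (0.25) and of 6 genes in the interaction (*Eif4g2* 0.38, *Eif4ebp2* 0.02, *Eif3a* 0.05, *Eif5b* 0.44 or 0.45 with the block, *Eif4g3* 0.32, *Eif1ax* 0.24). Genes called in neither also changed sign, 10 at 6 months, 13 at 1 month, 14 in WT, 12 in 5xFAD and 13 in the interaction. All these signs were read before the median of all genes was subtracted, which the removal moved to 0.20 in the interaction. Relative to that median, *Eif4ebp2* had -0.18 and *Eif3a* -0.14, the same sign as without the removal. At 1 month *Eif4g2* likewise kept its sign relative to the median, at 0.04, and *Eif1b* changed it, at 0.01. The DESeq2 Wald test called 12 at 6 months. Without the 3 libraries richest in ribosomal RNA, which leaves 1 5xFAD library at 6 months, the interaction called 12, assuming that this library varies like the others, and transcripts 0 at 6 months and 1 at 1 month. With the libraries compared alone 0 transcripts were called at 6 months. Single libraries left out gave 4 to 10 at 6 months, 8 to 18 at 1 month, 3 to 10 in WT, 14 to 21 in 5xFAD and 13 to 22 for the interaction. For transcripts they gave 0 to 6 and 1 to 7. The cause of these shifts was not tested. Shares of all genes called are given above only for the main fit and, between genotypes, for the removal of length and GC trends. Counts under the other alternatives therefore cannot show a shift particular to the factor genes. Same-numbered replicates did not vary together (correlations -0.226 to -0.054 at 6 months and 0 to 0.094 at 1 month), so the replicate block has no basis in the design. It gave 5 and 14 calls between genotypes, 8 in WT, 20 in 5xFAD and 19 for the interaction, and for transcripts 0 at 6 months and 2 at 1 month. Calls kept under every alternative were *Eif1*, *Eif3f* and *Eef1a1* at 6 months and *Eif1* and *Eif4g1* at 1 month. Adding counts of pseudogene copies, chosen after seeing the data, left the counts at 5 and 18.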
